A study of Mus musculus with 72 samples.

Results

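The genes expressed in the blood of mice were compared 3 days after 1 Gy of x-rays with those of mice sacrificed on the same day without exposure. The members were chosen by their labels alone, as all arrays of these groups: 5 mice exposed to 1 Gy x-rays and 5 controls, 10 of the 72 samples of the series. All were male C57BL/6 mice, each array carried the RNA of 1 mouse, and the controls were sham-irradiated. In the study, shams were held on the wheel of the neutron source with the beam off, and x-rays came from a separate machine. Any difference in handling cannot be told apart from exposure. The study's methods name mice sacrificed at days 1 and 7 only, so these details are carried over to day 3. Whole blood was drawn by cardiac puncture into an RNA-stabilising solution, globin transcripts were depleted, and the RNA was hybridised to 1-colour Agilent mouse arrays. The dose was 1 Gy in the exposed group and 0 Gy in the controls. Other groups of the series enter only for comparison: mice at day 1 and at day 7 after the same dose, with the controls of those days, and 0.25 Gy neutrons at day 3.

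Blood RNA is a mixture. Red cells lose their nucleus before they leave the marrow, and the youngest of them, the reticulocytes, still carry RNA for membrane and haem proteins. Platelets are fragments of megakaryocytes and carry megakaryocyte RNA. B lymphocytes are among the most radiosensitive cells of blood, and ionizing radiation induces p53 target genes in many cell types. Since whole blood was measured, a lower level can mean fewer cells of a type or less RNA per cell, and these cannot be told apart.

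A level below is the log2 signal of a gene's probe relative to the median detected probe of the same array, so it can be set against other arrays but not against other genes. Every value below takes the scanner file deposited for a sample as that sample's; the columns of the table of processed values deposited with it followed other arrays for most samples, and which assignment holds could not be settled. On the 10 arrays 53.5 to 62.8% of spots were well above background. The mean share was 57.5% ± 1.92 after x-rays and 58.1% ± 3.82 in controls (SD, n = 5 each), a difference of -0.623 percentage points (2-sided exact permutation test, p = 0.722; the smallest p this design allows is 0.00794). X-ray replicate 1 stood apart: its median correlation with the other arrays was 0.843, against 0.938 to 0.965 for the others. The 5 controls were scanned on 1 date, x-ray replicates 1 to 4 on another and x-ray replicate 5 on neither of these, and no slide held both groups, so date, slide and group cannot be told apart within these 10 arrays. The day 3 neutron arrays lay on both main dates, 2 beside the controls and 3 beside x-ray replicates 1 to 4. A difference within dates was therefore formed by adding neutrons minus controls on the controls' date to x-rays minus neutrons on the x-ray date. It takes the neutron effect to be the same on both dates. X-ray replicate 1 is 1 of its 4 exposed arrays, and the difference was not formed without that array. Transcripts of liver cells varied strongly between mice of either group: the mean level of 13 hepatocyte genes ran from -1.99 to 5.78 in controls and from 0.71 to 5.55 after x-rays.

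Of 10863 genes tested, 217 (2.00%) passed the thresholds of p below 0.001 and a false discovery rate (FDR) under 5% in limma's moderated test; these are referred to as called. Expression was higher after x-rays for 172 of them (1.58% of genes tested) and lower for 45 (0.414%). The smallest FDR was 0.0284, so every call lay close to the threshold. At an unadjusted p below 0.05 there were 1401 higher genes (12.9%) and 1057 lower genes (9.73%). All 5 x-ray arrays lay above or below all 5 controls for 964 genes (8.87%), among them 212 of the 217 called. When arrays were centred on the spike-in controls, the median of all genes moved by -0.80 and 1 gene was called higher and 336 lower; directions below are relative to the median gene. The calls were not stable to the choice of arrays: leaving out any of 7 of the 10 arrays gave 0 calls with limma, with 1857 to 2387 genes at an unadjusted p below 0.05 and a smallest FDR of 0.0506 to 0.119. Leaving out x-ray replicate 1 gave 357 calls (277 higher, 2.55%, and 80 lower, 0.737%), x-ray replicate 3 gave 313 and control replicate 1 gave 325. With scan date as a fixed block and the neutron arrays included, no gene was called by limma, and 296 of 10558 had an unadjusted p below 0.05.

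Platelet and megakaryocyte genes were the fixed list with the most calls in the main test. Of 29 members tested, 7 rose, none fell and 24 were higher at an unadjusted p below 0.05, with a median log2 fold change of 1.07 against 0.00 for all genes tested. The called members encode receptors and structural proteins of the platelet. Thbs1, the adhesive glycoprotein thrombospondin 1 of platelet granules, read 4.16, 3.52, 3.61, 3.78 and 3.92 in controls 1 to 5 and 7.09, 5.94, 4.66, 6.38 and 5.76 in x-ray replicates 1 to 5. The lowest exposed mouse, replicate 3, lay above the highest control, and the log2 fold change was 2.17 (SE 0.39, FDR 0.037). Gp1bb, a chain of the receptor for von Willebrand factor, read 2.85, 2.08, 2.14, 2.31 and 1.85 in controls and 4.52, 4.67, 3.02, 4.36 and 3.72 after x-rays. Its log2 fold change was 1.81 (SE 0.34, FDR 0.0399), again without overlap and again with x-ray replicate 3 lowest. Gp1ba, another chain of the same receptor, rose by 1.37 (FDR 0.0399). The other called members were Itgb3 (1.66, FDR 0.0487), the integrin beta chain of the fibrinogen receptor, Tubb1 (1.54, FDR 0.0399), the platelet tubulin, Alox12 (1.46, FDR 0.0399), the platelet lipoxygenase, and Clec1b (1.13, FDR 0.0487), a receptor for podoplanin.

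F13a1, the A subunit of clotting factor XIII, is made by platelets and by monocytes and was held here in the monocyte list. It read 4.00, 2.94, 3.29, 3.45 and 3.14 in controls and 6.53, 5.37, 4.72, 5.27 and 5.18 after x-rays, a log2 fold change of 2.05 (SE 0.34, FDR 0.0331) with no overlap. The difference within scan dates was 0.80, and the neutron arrays of the 2 dates differed by 1.31. F13a1 was the only called gene among 23 monocyte genes tested, whose median was 0.10. Platelet factor 4, Pf4, is one of the most abundant platelet messages and read 8.36 to 8.88 in controls and 8.80 to 9.23 after x-rays. Its log2 fold change of 0.41 (FDR 0.21) did not pass the test, and it was -0.38 under spike-in centring. Esam, an adhesion molecule of platelets and endothelium, had a log2 fold change of 1.60 (FDR 0.0525) and fell short of the threshold. The mean level of the platelet list was 3.46 to 3.88 in controls and 3.97 to 5.23 after x-rays, so the groups did not overlap. Within scan dates the list's median was 0.76 with 29 of 29 members above 0, and 2.17 became 1.01 for Thbs1 and 1.81 became 1.38 for Gp1bb. The neutron arrays of the x-ray date lay above those of the controls' date by a median of 0.51 over the same genes. Without x-ray replicate 1, 7 members were called, against 9 red cell membrane genes, and the median was 1.07. With quantile normalization 3 members were called, against 4 red cell membrane genes. Centring on the 75th percentile left 2 called members, normexp background correction 1 and spike-in centring 0.

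**Figure D1:**
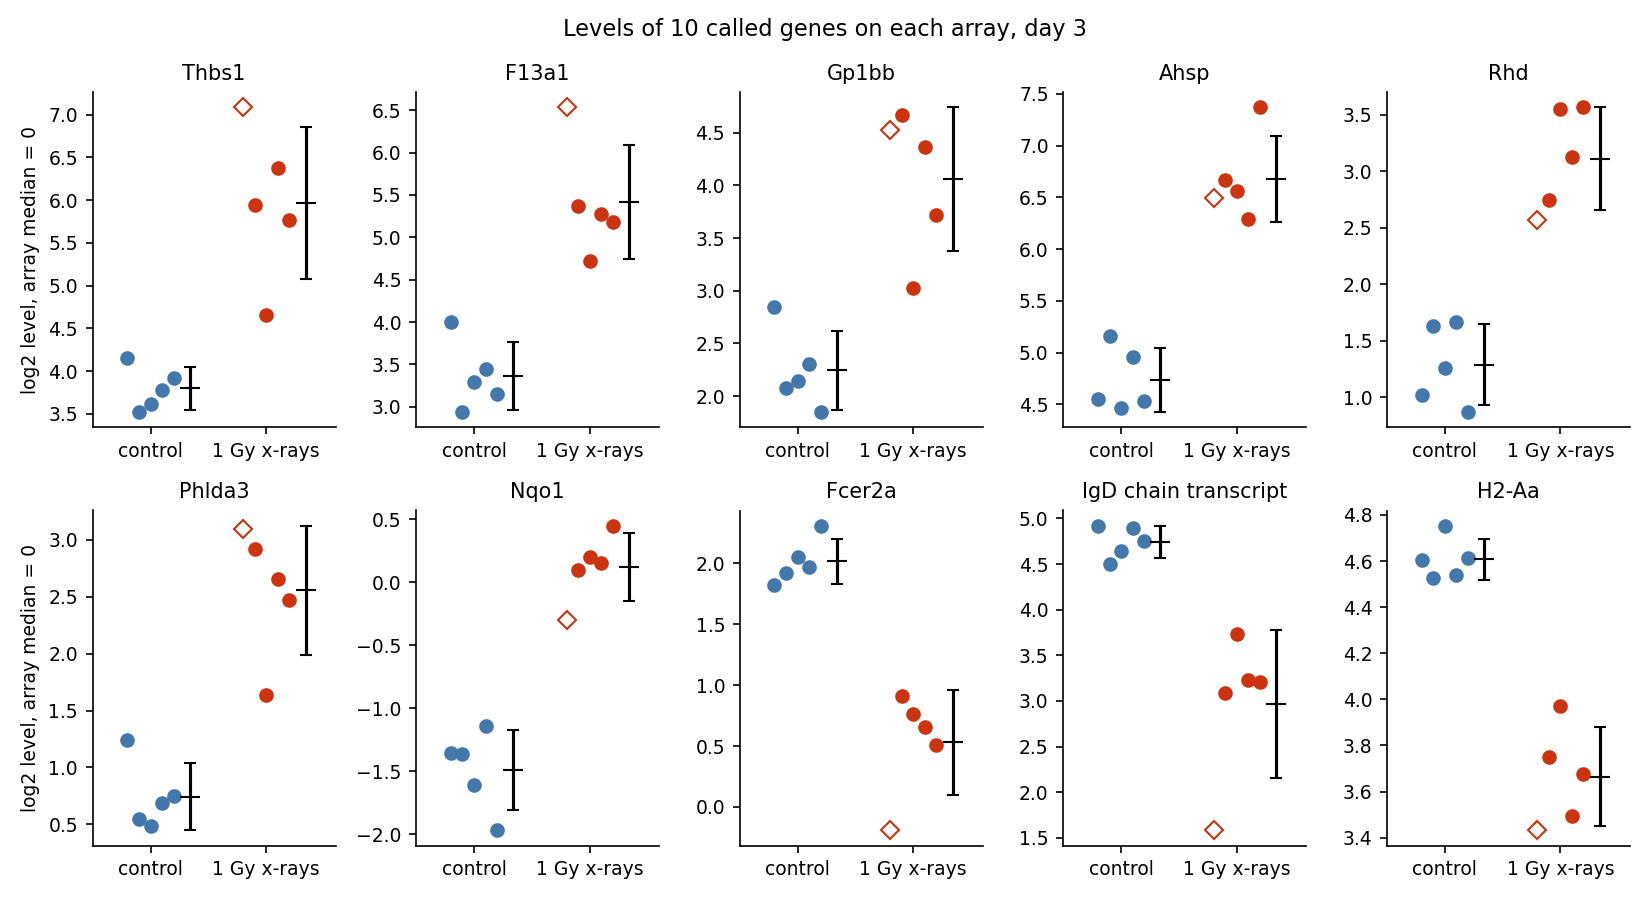
Log2 levels relative to the array's median detected probe for 10 called genes in 5 controls (blue) and 5 mice 3 days after 1 Gy x-rays (red; x-ray replicate 1 as an open diamond); bars are the mean and SD, and each panel has its own axis. The groups do not overlap in any panel. X-ray replicate 1 is the highest x-ray point for Thbs1, F13a1 and Phlda3. It is the lowest x-ray point for Rhd, Nqo1, Fcer2a, the IgD chain and H2-Aa.

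Red cell membrane genes were higher as a group. Of 23 members tested, 4 rose, none fell, and 15 were higher at an unadjusted p below 0.05; the median log2 fold change was 1.07. Rhd, the Rh blood group antigen, read 1.02, 1.63, 1.25, 1.66 and 0.87 in controls and 2.57, 2.75, 3.55, 3.12 and 3.56 after x-rays. Every exposed mouse lay above every control, with a log2 fold change of 1.82 (SE 0.27, FDR 0.0308). Sptb, beta-spectrin of the membrane skeleton, changed by 1.80 (FDR 0.0403); its probe was well above background on 2 of the 5 controls and on all x-ray arrays. Cd59a, a membrane inhibitor of complement, rose by 1.58 (FDR 0.0366) and Xk, the partner of the Kell protein, by 1.13 (FDR 0.0472). Central components of the red cell membrane did not pass the test: Slc4a1, the anion exchanger band 3, had 1.02 (FDR 0.148) and Ank1, the ankyrin that ties band 3 to spectrin, 1.13 (FDR 0.0985). Ank1 was picked for mention after its values were seen. Without x-ray replicate 1, 9 members were called with a median of 1.08.

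By scan date, the mean level of this list was 0.77 to 1.20 in controls, 1.12 and 1.79 in the neutron arrays of the controls' date, 1.88 to 2.48 in the neutron arrays of the x-ray date, and 1.51 to 2.15 in x-ray replicates 1 to 4. Neutron arrays of the x-ray date thus exceeded those of the controls' date by a median of 0.69 over the list, and within dates the median x-ray difference was 0.07, with 13 of 23 members above 0. For Rhd the difference within dates was 0.50.

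Promoters of 3 red cell membrane genes are given because each holds the hexamer AGATAA (or its complement TTATCT), letters recognised by the GATA factors that drive erythroid genes. They are the 250 bases before the RefSeq start on GRCm38.p6, 5′ to 3′ on the gene's strand, with the hexamer in capitals.
Rhd, chr4:134864286-134864535, plus strand: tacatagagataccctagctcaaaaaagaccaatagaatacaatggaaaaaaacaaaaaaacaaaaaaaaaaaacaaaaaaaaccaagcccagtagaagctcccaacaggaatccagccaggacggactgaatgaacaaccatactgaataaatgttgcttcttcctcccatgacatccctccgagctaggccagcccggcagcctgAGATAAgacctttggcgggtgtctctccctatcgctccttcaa
Icam4, chr9:21029182-21029431, plus strand: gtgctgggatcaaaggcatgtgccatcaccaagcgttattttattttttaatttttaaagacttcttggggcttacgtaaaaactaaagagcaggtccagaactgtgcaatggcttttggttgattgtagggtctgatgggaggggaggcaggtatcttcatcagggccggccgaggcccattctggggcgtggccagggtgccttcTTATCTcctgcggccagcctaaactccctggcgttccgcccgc
Kel, chr6:41704326-41704575, minus strand: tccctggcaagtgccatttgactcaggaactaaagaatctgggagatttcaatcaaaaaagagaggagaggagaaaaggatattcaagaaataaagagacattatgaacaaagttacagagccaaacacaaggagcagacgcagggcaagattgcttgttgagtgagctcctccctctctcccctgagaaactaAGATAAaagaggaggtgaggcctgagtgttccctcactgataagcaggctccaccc
The hexamer began 43 bases before the start in Rhd and Icam4 and 56 bases before it in Kel. Of the 16 list members with a promoter in the reference, 6 held it on either strand (37.5%), against 9.99% of 32851 promoters of the same length. The share was 7.42% over all genes tested, 12.7% over the genes called higher and 9.09% (2 of 22) over the platelet and megakaryocyte list. Whether the hexamer bears on the changes was not tested. Icam4, an erythroid adhesion molecule, had a log2 fold change of 1.15 (FDR 0.0664) and Kel, the Kell blood group protease, 1.14 (FDR 0.177); neither passed the test with all arrays. The called members Sptb, Cd59a and Xk had promoters in the reference without the hexamer.

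Genes of the erythroid programme inside the cell gave calls and values near 0 side by side. Ahsp, the chaperone of free alpha-globin, had one of the smallest FDRs of all genes. Its levels were 4.55, 5.16, 4.47, 4.96 and 4.54 in controls and 6.49, 6.67, 6.56, 6.29 and 7.37 after x-rays, a log2 fold change of 1.94 (SE 0.25, FDR 0.0284) with a wide gap between the groups. Within scan dates the difference was 0.39. Tal1, a transcription factor of blood and megakaryocyte development, rose by 1.00 (FDR 0.0431). These were the 2 calls among 18 erythroid regulators and globins tested, whose median was 0.43. Alas2, the erythroid enzyme that opens haem synthesis, read 9.33 to 10.35 in controls and 9.02 to 10.01 after x-rays, with a log2 fold change of -0.24 (FDR 0.656) that was 0.07 with normexp background correction. Hbb-bt, an adult beta-globin, had -0.23 (FDR 0.629); globin transcripts had been depleted from the samples. Among 27 genes of reticulocyte clearance, which remove organelles and proteins as the cell matures, none was called and 7 were higher at an unadjusted p below 0.05, with a median of 0.44. Bcl2l1, the survival factor Bcl-xL, came nearest with 0.98 (FDR 0.0538), and -0.01 within scan dates. Without x-ray replicate 1, 5 members of this list were called. Within scan dates, with that array included, the list's median was -0.26. On the x-ray date its mean level was 3.32 in replicate 1 and 4.46 to 4.92 in replicates 2 to 4. The neutron arrays of that date had 4.58 to 5.43.

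B lymphocyte genes were lower. Of 28 tested, 1 fell, none rose, and 20 were lower at an unadjusted p below 0.05, with a median log2 fold change of -0.88. Fcer2a, the low-affinity IgE receptor CD23 of mature B cells, read 1.82, 1.92, 2.05, 1.97 and 2.31 in controls and -0.19, 0.91, 0.76, 0.66 and 0.51 after x-rays. The 5 exposed mice lay below all controls, with a log2 fold change of -1.49 (SE 0.23, FDR 0.0331), and -0.52 within scan dates. Members that did not pass the test included Cd79b and Cd79a, the signalling chains of the B cell receptor, with -1.02 (FDR 0.0542) and -1.31 (FDR 0.102), and Ms4a1, which encodes CD20, with -0.85 (FDR 0.0763). Over the list, the mean level was 2.84 to 3.12 in controls and 1.36 to 2.67 after x-rays, with x-ray replicate 1 lowest. Without that array the median was -0.72 and 2 members were called. Within scan dates the median was -0.28 with 23 of 28 members below 0, and neutron arrays of the x-ray date differed from those of the controls' date by a median of -0.56. On the x-ray date, the list's mean level was 1.36 in x-ray replicate 1 and 2.18 to 2.67 in replicates 2 to 4. The neutron arrays of that date had 1.62 to 2.25.

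MHC class II genes, whose products present peptides on B cells, dendritic cells and monocytes, were lower alongside. Each of the 11 members tested had a negative log2 fold change, from -1.45 to -0.29 with a median of -1.05; 1 fell and 7 were lower at an unadjusted p below 0.05. H2-Aa, an alpha chain of the class II molecule, read 4.61, 4.53, 4.75, 4.54 and 4.61 in controls and 3.43, 3.75, 3.97, 3.49 and 3.68 after x-rays. The gap between the groups exceeded the spread of the controls, and the log2 fold change was -0.94 (SE 0.18, FDR 0.0399). H2-Oa, a chain of the regulator of peptide loading in B cells, had -1.34 (FDR 0.0516) and fell just short. Within scan dates the list's median was -0.34 with 8 of 11 members below 0, and H2-Aa changed by -0.19. On the x-ray date, the list's mean level was 2.11 in x-ray replicate 1 and 3.21 to 3.70 in replicates 2 to 4. The neutron arrays of that date had 2.61 to 3.33.

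The promoters of H2-Aa and H2-Oa are shown for the CCAAT pentamer, the letters bound by the factor NF-Y at these promoters, which both carry as its complement ATTGG, in capitals (RefSeq, GRCm38.p6, 250 bases before the start, 5′ to 3′ on the gene's strand).
H2-Aa, chr17:34287824-34288073, minus strand: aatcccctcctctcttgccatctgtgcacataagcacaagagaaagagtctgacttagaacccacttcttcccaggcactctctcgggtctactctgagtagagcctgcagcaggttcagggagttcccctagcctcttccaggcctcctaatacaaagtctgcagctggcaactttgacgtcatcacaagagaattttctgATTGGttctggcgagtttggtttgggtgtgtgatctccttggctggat
H2-Oa, chr17:34092129-34092378, plus strand: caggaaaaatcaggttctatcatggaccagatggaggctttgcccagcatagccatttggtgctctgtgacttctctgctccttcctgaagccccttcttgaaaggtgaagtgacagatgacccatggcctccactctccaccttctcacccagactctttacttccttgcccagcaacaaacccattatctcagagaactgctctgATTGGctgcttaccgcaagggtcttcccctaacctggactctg
The pentamer began 48 bases before the start of H2-Aa and 43 bases before that of H2-Oa. It was present on either strand in 7 of 8 class II promoters of the reference (87.5%), against 33.8% of all promoters; class II genes are paralogs, so these are not independent sequences. Among the 23 B cell list members with a promoter, 6 held it (26.1%).

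Immunoglobulin chain transcripts filled much of the list of falls. They were grouped by probe description after the values were seen, so the counts are a description. Of 85 tested, 20 fell, none rose, and 72 were lower at an unadjusted p below 0.05; the median log2 fold change was -0.86. They make up 20 of the 45 called falls. The deepest call was the immunoglobulin delta chain (ENSMUST00000192250), the constant part of IgD on naive B cells, at chr12:114654277-114654336 on mm9. It read 4.92, 4.50, 4.65, 4.90 and 4.76 in controls and 1.58, 3.09, 3.74, 3.23 and 3.21 after x-rays, a log2 fold change of -1.78 (SE 0.35, FDR 0.0431) without overlap. It was -1.43 without x-ray replicate 1 and -1.30 within scan dates. Of the called probes 13 lay in the heavy chain locus on chromosome 12, 5 in the kappa locus on chromosome 6 and 2 in the lambda locus on chromosome 16 (mm9). Variable segments resemble each other, so one probe can detect transcripts of several segments. The mean level of the 85 ran from -0.07 to 0.07 in controls and from -1.19 to -0.45 after x-rays. Within scan dates the median was -0.09, with 48 of the 85 below 0 and 37 above, and the neutron arrays of the 2 dates differed by -0.78. The called chains ENSMUST00000103377, ENSMUST00000103391 and Iglv1 stood at 0.24, 0.08 and 0.03 within scan dates. The plasma cell list, which holds secretory genes of antibody-producing cells, had no call among 6 genes tested and a median of -0.26.

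**Figure D2:**
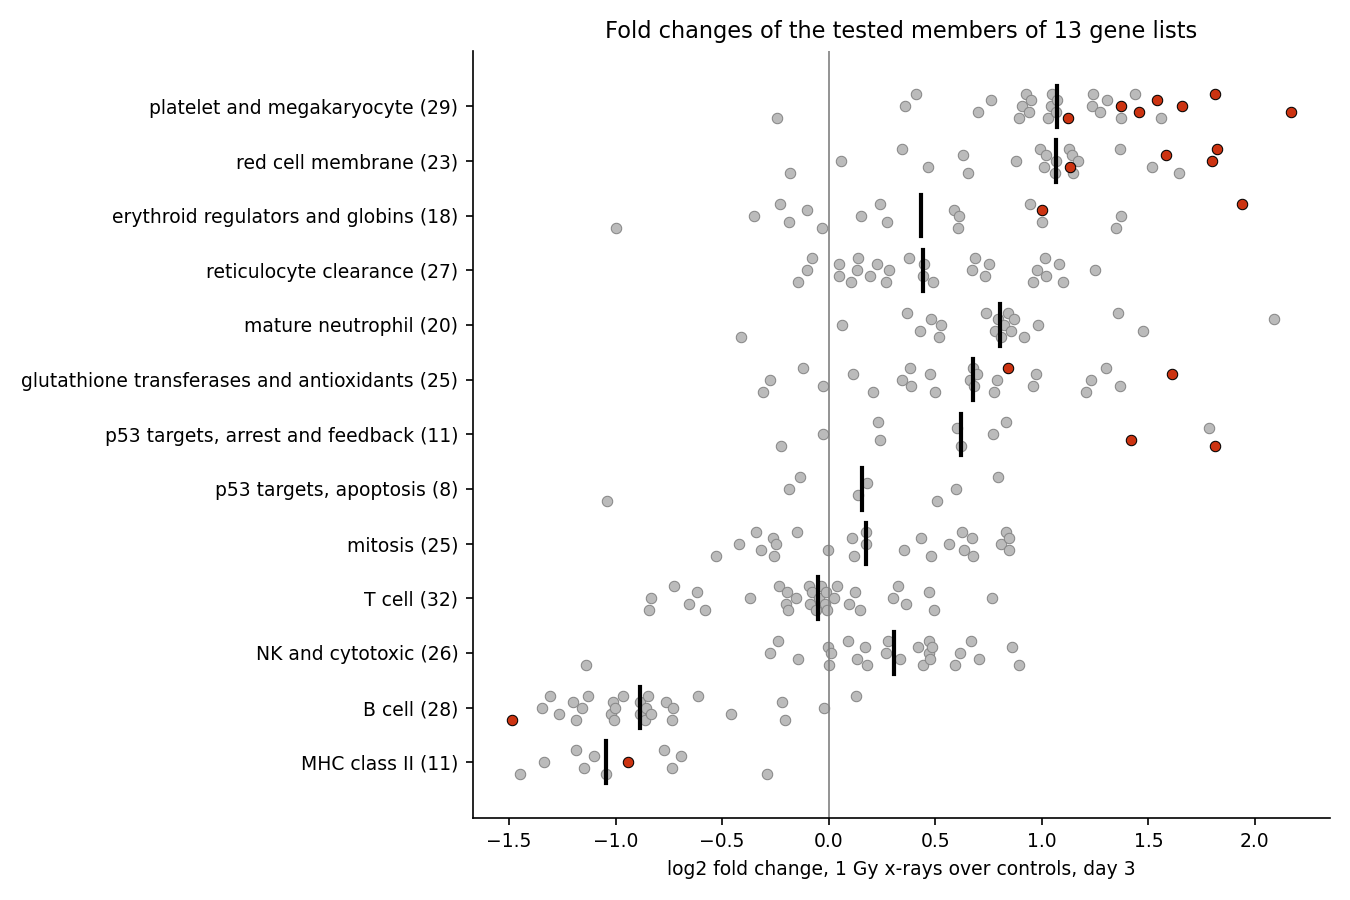
Log2 fold changes, 1 Gy x-rays over controls at day 3, of the tested members of 13 gene lists (number tested in brackets). Red points were called by limma, grey points were not, and black bars are medians; the platelet and red cell membrane lists sit near 1.07 and the MHC class II list near -1.05.

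Targets of p53 that arrest the cell cycle or feed back on p53 were higher in part. Of 11 tested, 2 rose, none fell, and 6 were higher at an unadjusted p below 0.05, with a median of 0.62; without x-ray replicate 1 the median was 0.38 and 3 were called. Phlda3, a p53 target that restrains Akt signalling, read 1.24, 0.55, 0.48, 0.69 and 0.75 in controls and 3.10, 2.92, 1.64, 2.65 and 2.47 after x-rays. The groups were apart, with a log2 fold change of 1.81 (SE 0.29, FDR 0.0331), and 1.62 within scan dates. Psrc1, a microtubule-binding p53 target, rose by 1.42 (SE 0.24, FDR 0.0348). Its lowest log2 fold change under any alternative was 0.19. Cdkn1a, which encodes the arrest protein p21, read -2.12, -3.49, -3.70, -3.80 and -1.40 in controls and -0.30, -0.95, -2.57, -1.81 and 0.03 after x-rays. Controls 1 and 5 lay among the exposed mice, and its log2 fold change of 1.78 (SE 0.60, FDR 0.12) did not pass the test. Ccng1, cyclin G1, had 0.77 (FDR 0.0589) with no overlap between groups and was called without x-ray replicate 1 (0.90, FDR 0.018); under spike-in centring it was -0.02. Mdm2, the ligase that degrades p53, varied too little to enter the test and had 0.18 (FDR 0.722) without the filter on variation. Within scan dates the median of the list was 0.67, with 9 of 11 members above 0, and the neutron arrays of the 2 dates differed by a median of 0.02. With spike-in centring the list's median was -0.55, and without the variation filter it was 0.24 over 16 members. With normexp background correction it was 0.19 over 13 members.

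The apoptotic targets of p53 gave no call among 8 tested, and their median was 0.16. Bbc3, the BH3-only protein Puma, had 0.79 (FDR 0.0576) and Bax, which permeabilises mitochondria, 0.60 (FDR 0.242), or -0.19 with spike-in centring. Trp53i11 had -1.04 (FDR 0.059). DNA repair lists were near the median gene: 6 genes of damage-induced repair had a median of -0.33 and 11 of double-strand break repair -0.11, both without a call. Dut, which removes dUTP before it can enter DNA, rose by 1.34 (FDR 0.0445) and was the sole call among 26 replication genes, whose median was -0.08.

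Glutathione transferases and antioxidant genes held 2 calls and 10 of 25 members higher at an unadjusted p below 0.05, with a median of 0.68; with spike-in centring the median was -0.12. Nqo1, the quinone reductase induced by oxidants and electrophiles, read -1.35, -1.37, -1.61, -1.14 and -1.97 in controls and -0.30, 0.10, 0.20, 0.16 and 0.45 after x-rays. Its groups did not overlap, with a log2 fold change of 1.61 (SE 0.22, FDR 0.0284), and 0.53 within scan dates. Gclm, the regulatory subunit of the enzyme that opens glutathione synthesis, rose by 0.84 (FDR 0.0481), and was -0.03 within scan dates. Several of these enzymes are also made by liver cells, whose transcripts varied between these mice as given above. With the hepatocyte level as a covariate the list's median was 0.50, and Nqo1 and Gclm had 1.62 and 0.86. In that fit limma called no gene, with 2238 at an unadjusted p below 0.05, while the medians of the lists were 1.14 for platelet, 1.13 for red cell membrane, 0.73 for p53 arrest, -0.88 for B cell and -1.02 for MHC class II genes.

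Other white cell lists gave no call at day 3. Of 20 mature neutrophil genes 9 were higher at an unadjusted p below 0.05 and the median was 0.80. The spread was wide, with mean levels of 1.35 to 2.64 in controls and 1.89 to 3.53 after x-rays. S100a8, an abundant calcium-binding protein of neutrophils, had 0.37 (FDR 0.697), and -0.42 with spike-in centring. The 32 T cell genes had a median of -0.05 and none at an unadjusted p below 0.05. Cd3e, a chain of the T cell receptor complex, read 3.70 to 4.24 in controls and 3.45 to 3.92 in x-ray replicates 2 to 5, but 2.04 in replicate 1, with a log2 fold change of -0.62 (FDR 0.301). The 26 NK and cytotoxic genes had a median of 0.31, the 33 interferon-stimulated genes 0.18 and the 25 mitosis genes 0.18. Of the remaining lists, none with a call, the medians were 0.56 for 15 neutrophil granule genes, -0.15 for 11 eosinophil and basophil genes, 0.15 for 5 of MHC class I and the immunoproteasome, 0.75 for 5 Schlafen genes, 0.30 for 15 of haem synthesis, 0.20 for 11 of iron handling and 0.27 for 11 E2f family and pocket protein genes. They were 0.02 for 20 genes of fatty acid oxidation, 0.24 for 20 of sterol synthesis and 0.95 for 4 acute phase genes. Lists of other tissues had medians of 1.13 for the 13 hepatocyte genes, 0.45 for 5 endothelial genes and 0.45 for 3 heart and muscle genes.

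The largest called rises outside the lists fixed for cell types and pathways were of mixed kind. Gm10674 had a log2 fold change of 4.12 (FDR 0.0431), with a probe well above background on 3 of the 5 controls, control 1 among them, and on all x-ray arrays; its spot on control 1 was left out as non-uniform, and that spot's signal of 859.5 lay among the exposed mice. Apol10a, of the apolipoprotein L family, read -0.95, -1.65, -2.11, -1.26 and -1.35 in controls and 0.33, 1.16, 0.51, 1.33 and 1.88 after x-rays. The groups were clear of each other by more than 1 log2 unit, with a change of 2.50 (SE 0.33, FDR 0.0284) that was 1.41 within scan dates. The remainder of the 12 largest rises, beside Thbs1, F13a1 and Ahsp, were ENSMUST00000064032 (2.73; well above background on 2 of the 5 controls), Cnn1, which encodes calponin of smooth muscle (2.15), Gm867 (2.05), the imprinted gene Mest (1.98), ENSMUST00000034133 (1.98), Armcx1 (1.95) and Lancl3 (1.92). Within scan dates these genes stood at 1.92, 1.76, 0.86, 1.48, 0.17, 1.56 and 0.99 in the same order, and Gm10674 at 2.43.

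The called falls included 5 kallikreins, a family of secreted serine proteases. Klk1 read -2.29, -1.59, -1.73, -1.38 and -2.03 in controls and -5.28, -4.85, -2.68, -5.27 and -5.53 after x-rays, and its probe was well above background on 1 of the 5 exposed arrays. X-ray replicate 3 was the least reduced. The log2 fold change was -2.92 (SE 0.49, FDR 0.0353). Klk1b5 fell by 2.83, Klk1b26 by 2.61, Egfbp2 by 2.61 and Klk1b24 by 1.55 on the log2 scale. All 5 were well above background on every control, but of the 5 x-ray arrays Klk1b26 was so on 1, Egfbp2 on 3, and Klk1b5 and Klk1b24 on 4, so the size of these falls is uncertain. Within scan dates they lay between -3.36 and -1.23. These genes are close paralogs and the probes of Klk1b26 and Egfbp2 read almost the same sequence, so they are not separate observations. Pappa2, a protease of growth factor binding proteins, fell by 2.66 (FDR 0.0481) and Tead1, a transcription factor of the Hippo pathway, by 2.27 (FDR 0.0431). Within scan dates Pappa2 stood at -0.27 and Tead1 at 0.35, and the neutron arrays of the 2 dates differed by -2.49 and -2.72 for these genes. Vmn1r217, a vomeronasal receptor, and Crhr2, a receptor of the corticotropin-releasing factor family, fell by 1.38 and 1.26. The numerically largest fall, Zfp36l3 (-3.94), rests on x-ray replicate 1 alone: the spots of the other 4 exposed mice were flagged non-uniform and left out, and their signals of 1217 to 2491 lay within or above the range of the controls, 636 to 1906, with 42.7 in replicate 1.

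**Figure D3:**
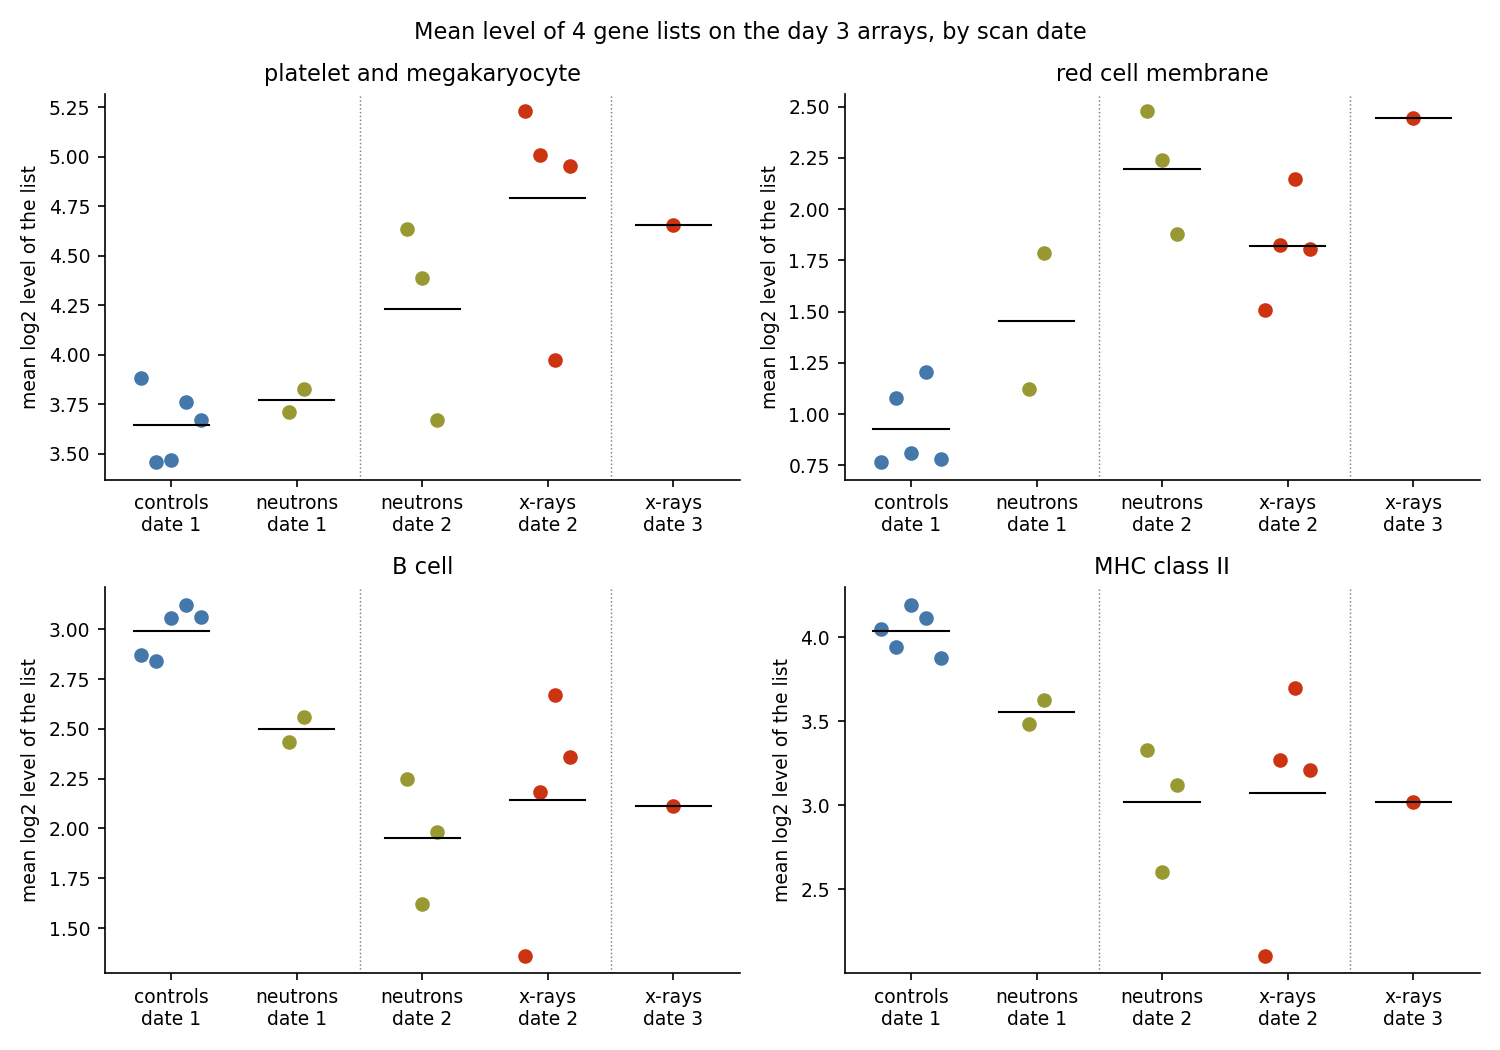
Mean log2 level of 4 gene lists on each day 3 array by scan date (date 1, controls; date 2, x-ray replicates 1 to 4; date 3, x-ray replicate 5); horizontal lines are means and dotted lines part the dates. Neutrons are 0.25 Gy; 1 neutron array on another date is not drawn. For red cell membrane genes the neutron arrays of date 2 (1.88 to 2.48) reach as high as the x-ray arrays of that date (1.51 to 2.15).

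The day 3 response was set against the responses to this dose at day 1 and at day 7, each with its own controls. At day 1, 831 genes (7.65%) were called and at day 7, 434 (4.00%). The day 3 effect differed from the day 1 effect for 270 genes (2.49%), in 252 of them upward, and from the day 7 effect for 267 (2.46%), in 77 upward. Among the lists, red cell membrane genes had the highest share called in the first of these. Their median log2 fold change was -1.41 at day 1, with 10 of 23 called lower, 1.07 at day 3 and 1.18 at day 7, with 13 called higher. For 14 of the 23 the day 3 effect was called higher than the day 1 effect. Rhd changed by -1.67 at day 1 and by 1.91 at day 7, and its day 3 effect exceeded that of day 1 by 3.50 (limma interaction). Ank1 moved from -3.37 at day 1 by 4.50, Ahsp from -2.12 by 4.07, and Apol10a from -2.44 by 4.94, the largest of the differences called. Reticulocyte clearance genes followed the same order, with medians of -1.04 at day 1, 0.44 at day 3 and 0.88 at day 7, and 12 of 27 called higher at day 3 than at day 1. No contrast between days was fitted with scan date as a block. Within scan dates the day 3 medians, with x-ray replicate 1 included, were 0.07 for red cell membrane and -0.26 for reticulocyte clearance genes. Rhd stood at 0.50 there, Ank1 at -0.37, Ahsp at 0.39 and Apol10a at 1.41.

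Platelet genes had a median of 0.85 at day 1, 1.07 at day 3 and -0.02 at day 7. The day 3 effect of Gp1bb exceeded its day 7 effect by 2.27, the sole list member called in that contrast; F13a1 exceeded it by 2.00. For p53 arrest targets the medians were 0.90, 0.62 and 0.15, and Phlda3 was higher at day 3 than at day 7 by 1.59. B cell genes showed no such turn, with medians of -0.80, -0.88 and -0.73 and no member called in either contrast; an absent call does not show that the days were equal. Interferon-stimulated genes differed in both directions, with 2 of 33 called higher at day 3 than at day 1 and 1 called lower. Rsad2 went from -1.93 to 0.81 and Isg15 from -1.15 to 0.68, while Ifit3 went from 1.61 to -0.45. Within scan dates the day 3 values were -0.13 for Isg15 and -0.42 for Ifit3. Ifit3b, its close paralog outside the list, went from 2.05 to -0.20, also a called difference. The remaining differences named by size were Gm6522 (4.10), Zfp36l3 (-4.12) and Wipf3 (-2.26) against day 1, and Slc4a7 (6.42), Gm10674 (6.31), Sh3bgr (3.53), Efemp2 (3.23), Gm5106 (-8.91), Wsb2 (-7.81), Fam13c (-6.12) and Hydin (-4.41) against day 7. At day 3 itself Gm6522, Wipf3, Slc4a7, Efemp2, Gm5106, Wsb2, Fam13c and Hydin were not called. For the last 6 the SE of the difference from day 7 was 0.84 to 1.70. Their day 7 effects entered too, with -4.08 for Slc4a7, 5.06 for Gm5106 and 4.36 for Wsb2.

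**Figure D4:**
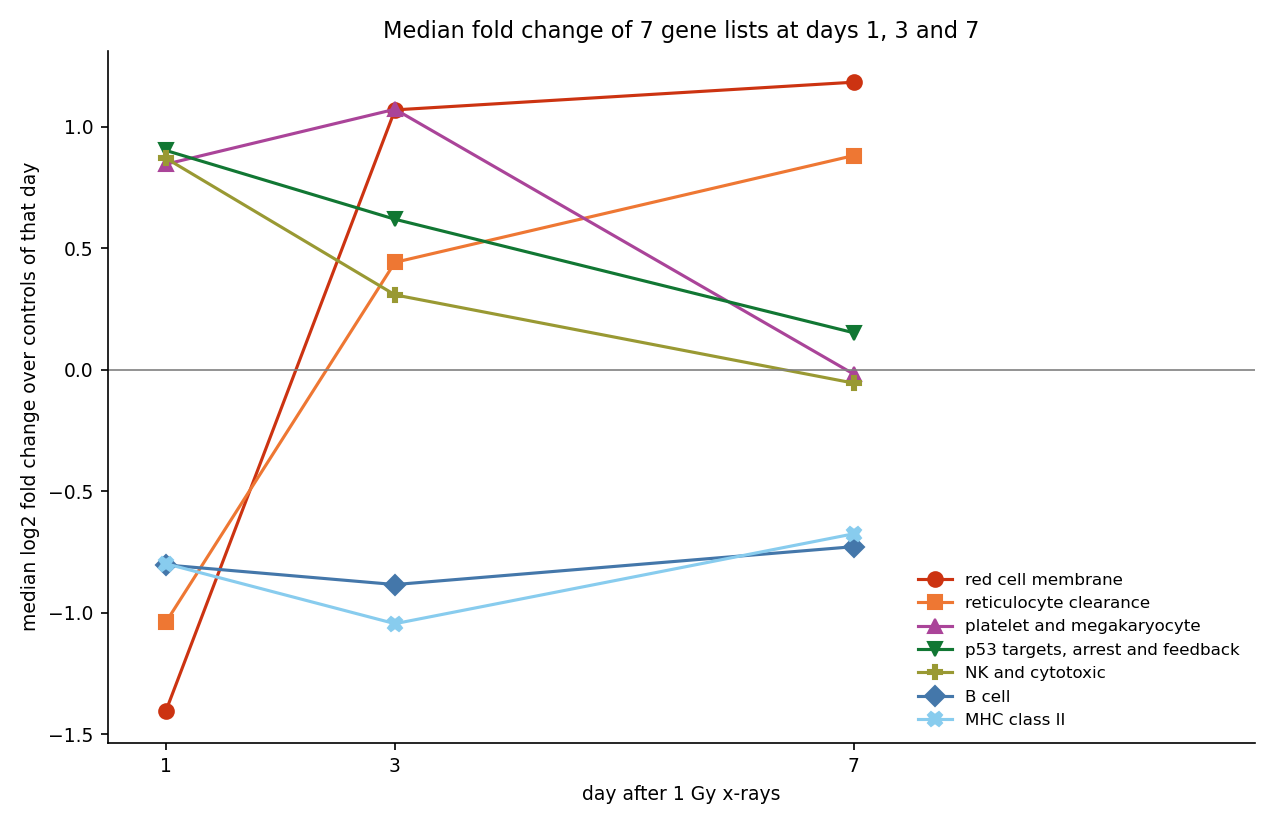
Median log2 fold change of 7 gene lists after 1 Gy x-rays over the controls of the same day, at days 1, 3 and 7; lines join values from different mice. Red cell membrane genes turn from -1.41 at day 1 to 1.07 at day 3, and B cell genes stay between -0.88 and -0.73. These values do not account for scan date. Within scan dates the day 3 medians, with x-ray replicate 1 included, were 0.07 for red cell membrane and -0.28 for B cell genes.

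The study singled out 9 genes, chosen on its day 1 and day 7 arrays, that were lower at the first and higher at the second of those days. At day 3 all 9 had a log2 fold change above 0, between 0.04 and 0.75, with a median of 0.51, and none was called. Without x-ray replicate 1 the median was 0.80. Within scan dates, with replicate 1 included, it was -0.61, with 8 of the 9 below 0 and Mta3 at 0.17. The neutron arrays of the 2 dates differed by a median of 0.83. On the x-ray date the mean level was 2.64 in x-ray replicate 1 and 4.27 to 4.92 in replicates 2 to 4. The neutron arrays of that date had 4.58 to 5.56. Medians of the 9 genes were -1.34 at day 1 and 1.62 at day 7, values from the arrays on which they had been chosen. E2f2, a transcription factor of the cell cycle and of red cell maturation, read 5.19 to 5.91 in controls and 5.64 to 6.89 in x-ray replicates 2 to 5, but 3.62 in replicate 1, for a log2 fold change of 0.04 (FDR 0.973) with that array and 0.55 (FDR 0.206) without it. Wdr26, a ubiquitin ligase subunit, read -0.82 in replicate 1 and 4.38 to 5.19 in the others, against 3.28 to 3.99 in controls, and was called without replicate 1 (1.23, FDR 0.0235), as was Ubac1 (1.26, FDR 0.0271). A list of cell cycle genes that had also been measured by PCR holds Fzr1, Ube2c, Ccna2, Nusap1 and Cdc25b. These had log2 fold changes of 0.48 to 0.67 at day 3 with a median of 0.63 and no call, against medians of -1.63 at day 1 and 1.44 at day 7. Their median at day 3 was 1.00 without x-ray replicate 1. Within scan dates, with replicate 1 included, it was -0.44, 4 of the 5 were below 0 and Ube2c stood at 0.08. On the x-ray date their mean level was 2.51 in replicate 1 and 3.91 to 4.68 in replicates 2 to 4. The neutron arrays of that date had 4.15 to 5.34.

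Mice exposed to 0.25 Gy neutrons at day 3 shared the controls with the x-ray mice, and 127 genes were called for them. The x-ray comparison had 217 calls among 10863 genes tested. Scan date limits this count too, as 2 of the 6 neutron arrays lay on the controls' date. Set directly against each other, x-rays and neutrons at day 3 differed for 0 genes with limma, with 1208 at an unadjusted p below 0.05 and a smallest FDR of 0.35. This does not show that the exposures act alike.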

How the data were processed

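The authors scanned each array and deposited its spots as Agilent Feature Extraction 12.0.2 intensity values, background-subtracted on a linear scale. Here log2 of the processed signal was taken, control spots and spots flagged as non-uniform or population outliers were left out, replicate spots were combined by their mean, and the median detected probe of every array was set to 0. A gene was tested if, over the 56 day 1 and day 7 arrays, its probe was flagged on less than 25% and lay at least 1.5-fold from its median on 20%; the brightest probe stood for a gene. Groups were compared with limma 3.58.1 (R 4.3.3; 2-sided, Benjamini-Hochberg), and the scripts were checked on simulated data. Interaction contrasts tested the difference between days. Named genes were the 12 largest called rises and falls without overlap and above background, the 2 smallest p per direction in 34 gene lists, and a few fixed genes. The gene lists and the genes in them were chosen with earlier results of these data known. The number of arrays limits the precision. The p-values set a difference against the spread between mice of a group. In the main test they do not account for scan date or slide, which differed between the groups.

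The authors also deposited a table of processed log2 values. Of its 72 columns 12 followed the scanner values of their own array, and of the 10 samples here none did (6 followed an array of another group), so groups rest on the scanner file of each sample and the table was not used. Which assignment is right could not be settled. Alternatives were other background corrections, centrings, filters, fits, scan date or slide as a block, and leaving out each array. Promoters come from RefSeq and were matched by symbol.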

Additional observations from a re-analysis of the deposited data

Results flagged for a closer look

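In 11 of 120 groups of values looked at, 1 array lay far from the other 4 of its group; chance gives about 1 in 20. For x-ray replicate 1 this held for its median correlation with the other arrays (0.843) and for the lowest levels of Cd3e (2.04) and Alas2 (9.02) after x-rays. The highest Klk1 level after x-rays, -2.68, was that of replicate 3. In controls, single arrays were low for Gm867 (-3.02), ENSMUST00000034133 (-3.40), Armcx1 (-4.77), Pappa2 (-2.80) and Cd79a (4.83), and high for Mest (1.77) and Cd59a (2.36).

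The effect of 1 Gy x-rays differed between days for the following named genes by limma's interaction contrast. On the log2 scale the day 3 effect exceeded the day 1 effect by 4.94 for Apol10a, 4.07 for Ahsp, 3.84 for ENSMUST00000034133, 3.84 for Slc4a1, 3.50 for Rhd, 3.45 for Gm867, 1.89 for Nqo1, 1.71 for Gclm and 1.46 for Xk, and differed by -4.12 for Zfp36l3. Against day 7 it was greater by 6.31 for Gm10674, 2.63 for Mest, 2.27 for Gp1bb, 2.00 for F13a1 and 1.59 for Phlda3. It was more negative than at day 7 for Zfp36l3 (-4.38), Pappa2 (-3.10), Tead1 (-2.86), Vmn1r217 (-2.77), Klk1 (-2.66), Crhr2 (-2.25) and ENSMUST00000103443 (-0.95). The values of Zfp36l3 rest on 1 exposed array and those of Gm10674 on 4 controls. None of these contrasts accounts for scan date.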

How the results depend on the processing

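Calls at day 3 (217) changed with the processing and the cause was not tested: 17 with normexp background correction, 71 with centring on the 75th percentile, 124 with quantile normalization, 337 with spike-in centring, 0 without the detection filter (26314 genes tested, 3044 at an unadjusted p below 0.05), 640 with all 13 groups in 1 fit, 1504 with scan date and 584 with slide as a random block (estimated correlations of -0.17 and -0.12), 0 with the hepatocyte level as a covariate, and 0 with scan date as a fixed block and the neutron arrays, an alternative chosen after seeing the data. No scan date or slide held both x-ray and control arrays. The random blocks therefore could not separate date or slide from group, and their counts are not adjusted for either. Leaving out 1 array gave 0 to 357 calls. With 1 array fewer, the difference from day 1 (270) had 205 to 422 calls and that from day 7 (267) 56 to 449. The same 2 counts were 50 and 0 with normexp, 12 and 47 with spike-in centring, and 158 and 1 without the detection filter; the latter was 543 with all groups in 1 fit. The replicate numbers did not pair the samples (correlations of -0.39 to 0.31), and the replicate block gave 286 calls at day 3, 107 of them shared.

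Among the genes recomputed under every alternative, the log2 fold changes that turned sign were those of Ccng1 (-0.016), Bax (-0.19), Pf4 (-0.38) and S100a8 (-0.42) with spike-in centring, Alas2 (0.071) with normexp, and Tead1 (0.35), Gclm (-0.029) and Ank1 (-0.37) with scan date as a fixed block. Genes outside that set that turned sign within scan dates included 8 of the study's 9 genes, 4 of its 5 cell cycle genes and Bcl2l1 (-0.01). Others were Chil3 (-0.45), Slfn3 (-0.25), Isg15 (-0.13) and the called immunoglobulin chains ENSMUST00000103377 (0.24), ENSMUST00000103391 (0.08) and Iglv1 (0.03). This is not a full list, and x-ray replicate 1 entered each of these differences within scan dates. Excluding the settings that leave out an array, values of the recomputed genes kept direction and side of the threshold in 708 instances, lost the threshold in 245 and gained it in 26.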
